A study of Homo sapiens with 6 samples.

Results

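Small nuclear and small nucleolar RNA genes were followed in DLD1 cells, an established human colorectal cancer line. They were chosen by biotype and level: every gene of the co-culture table annotated as snoRNA, scaRNA or snRNA whose FPKM averaged at least 1 over S-CAFs-w13 and DLD1-W13CM. FPKM are fragments per kilobase of gene, scaled to the size of the library. This gave 287 of the 290 genes of these biotypes and of the 21519 genes in the table. They were 51 C/D box genes (SNORD), 68 H/ACA genes (SNORA) and 10 small Cajal body genes (SCARNA). The others were 155 spliceosomal and U7 genes and pseudogenes (RNU) and 3 genes with other names. Of the RNU genes 8 are U7 pseudogenes, and U7 is not part of the spliceosome. The mean level used in the choice comes from the same libraries that are compared below, so those levels are a description and carry no test. Just inside the limit stood RNU2-31P with a mean of 1.03 FPKM, SNORA74 with 1.03 FPKM and RNU4-31P with 1.13 FPKM. Just outside it stood RNU2-59P and RNU2-25P, each with 0.834 FPKM, and SNORD3C with 0.682 FPKM.

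The study profiled RNA of wild-type DLD1 cells grown with S-CAFs (S-CAFs-w13) and of a second culture, DLD1-W13CM, taken by elimination as the one with CAFs, where CAFs are cancer-associated fibroblasts. The title of DLD1-W13CM does not name a co-culture and the letters CM are not explained. Input RNA was also profiled in DLD1 cells with stable knockdown of METTL1, the tRNA m7G methyltransferase, from a single construct (sh2-Input), and in control cells (sh-NT-Input). With 1 library per group there is no replicate to check a difference against, and no p-value is given.

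Small nucleolar RNAs sit in the nucleolus with a fixed set of proteins and pair with ribosomal RNA: C/D box RNAs direct methylation of the ribose and H/ACA RNAs direct the change of uridine to pseudouridine, while a few, such as U3, are needed to cut the ribosomal precursor. Small Cajal body RNAs guide the same modifications on spliceosomal RNAs, and the spliceosomal U RNAs recognise and remove introns. In human cells most small nucleolar RNAs are cut from introns of other genes, whereas U RNAs and U3 have promoters of their own, and most of these RNAs carry no poly(A) tail. The libraries were made with a TruSeq RNA kit from total RNA; whether poly(A) RNA was selected is not stated in the sources used here.

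Library sizes worked out from the FPKM steps were 6215547 reads for S-CAFs-w13, 6337932 for DLD1-W13CM, 11625162 for sh2-Input and 10454179 for sh-NT-Input. METTL1 stood at 3.28 FPKM in sh2-Input and 5.80 FPKM in sh-NT-Input, a ratio of 0.566 (0.436 to 0.731). In the co-culture libraries it stood at 1.78 FPKM in S-CAFs-w13 and 4.82 FPKM in DLD1-W13CM, a ratio of 0.370 (0.233 to 0.572). Of the epithelial markers read, EPCAM stood at 149 FPKM in S-CAFs-w13 and 154 FPKM in DLD1-W13CM. The others differed more, with a ratio of 0.771 for CDH1, 0.360 for CDX2 and 1.79 for KRT18. Of 15 fibroblast markers 7 had a row in the co-culture table, with a summed level of 12.7 FPKM in S-CAFs-w13 and 10.3 FPKM in DLD1-W13CM, of which S100A4 gave 7.53 and 4.77 FPKM. FN1 (1.71 and 3.12 FPKM) and ACTA2 (1.51 and 1.80 FPKM) were lower in S-CAFs-w13 and the other 5 were higher, such as COL1A1 at 0.229 and 0.0482 FPKM. COL1A2, COL3A1, DCN and LUM had no row. Genes of the mitochondrial genome took 34.3% of all FPKM in S-CAFs-w13 and 44.5% in DLD1-W13CM. Without them every plain FPKM ratio of S-CAFs-w13 over DLD1-W13CM below is 0.856 times as large. The median log2 ratio of all genes is then -0.18. Log2 ratios with 1 FPKM added do not change by that single factor, and it does not apply to ratios of sh2-Input over sh-NT-Input. The part of these differences in the results was not tested.

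The small RNA genes were thinly covered. Over all 287 genes there were 1533 recovered reads in S-CAFs-w13 and 1664 in DLD1-W13CM, and the median gene had 5 reads over both libraries together. Only 23 genes had at least 20 reads, and a single gene, SNORD3A, held 791 of them. The parentheses after a ratio therefore give its exact 95% Clopper-Pearson counting interval, which covers counting error only. In bulk RNA, fewer cells of a type and less RNA per cell cannot be told apart.

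**Figure D1:**
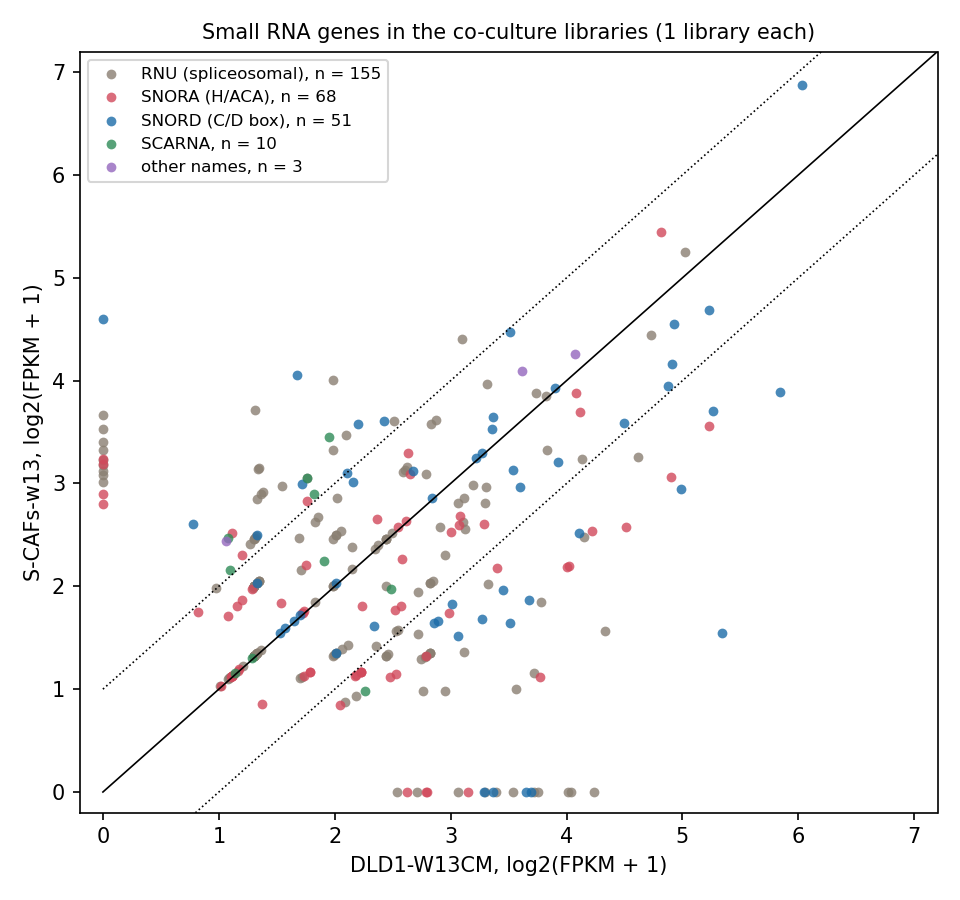
FPKM of each of the 287 small RNA genes in S-CAFs-w13 (vertical axis) and DLD1-W13CM (horizontal axis), as log2(FPKM + 1), with 1 library each; the solid line marks equal levels and the dotted lines 2-fold. Points on the axes are the 14 genes listed at 0 in DLD1-W13CM (left edge) and the 19 listed at 0 in S-CAFs-w13 (bottom edge).

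On the scale log2((FPKM + 1)/(FPKM + 1)), S-CAFs-w13 over DLD1-W13CM, 48 of the 287 genes lay 2-fold or more above equal levels in S-CAFs-w13 and 73 lay 2-fold or more below. Their median was 0.02, equal to that of the 14739 genes averaging 1 FPKM or more, of which 9.08% were 2-fold higher and 7.92% lower. Genes outside these biotypes with up to 20 reads were past 2-fold more often than all genes, with 18.7% higher and 14.8% lower. The counting interval lay above equal levels for 13 small RNA genes and below it for 26. Among all genes these shares were 29.6% and 26.6%, and among the other genes with up to 20 reads 9.78% and 7.57%. The class medians differed. The median log2 ratio was -0.41 for SNORD, -0.35 for SNORA, 0.70 for SCARNA and 0.02 for RNU genes. It was -0.95 for the 20 RNU genes without a pseudogene name. SNORD genes split nearly evenly, with 24 above 0 and 27 below, and SNORA genes likewise, with 32 and 36. Their median genes had 8 and 5 reads, so both medians are not firm. Above and below 0 lay 8 and 2 SCARNA genes, 93 and 62 RNU genes, and 6 and 14 RNU genes without a pseudogene name. S-CAFs-w13 was the smaller library, so a gene with equal reads in both has a plain ratio of 1.02 and counts as above 0. Ties such as RNU2-31P are thus among the 93 RNU genes above 0, and how many there are was not counted.

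**Figure D2:**
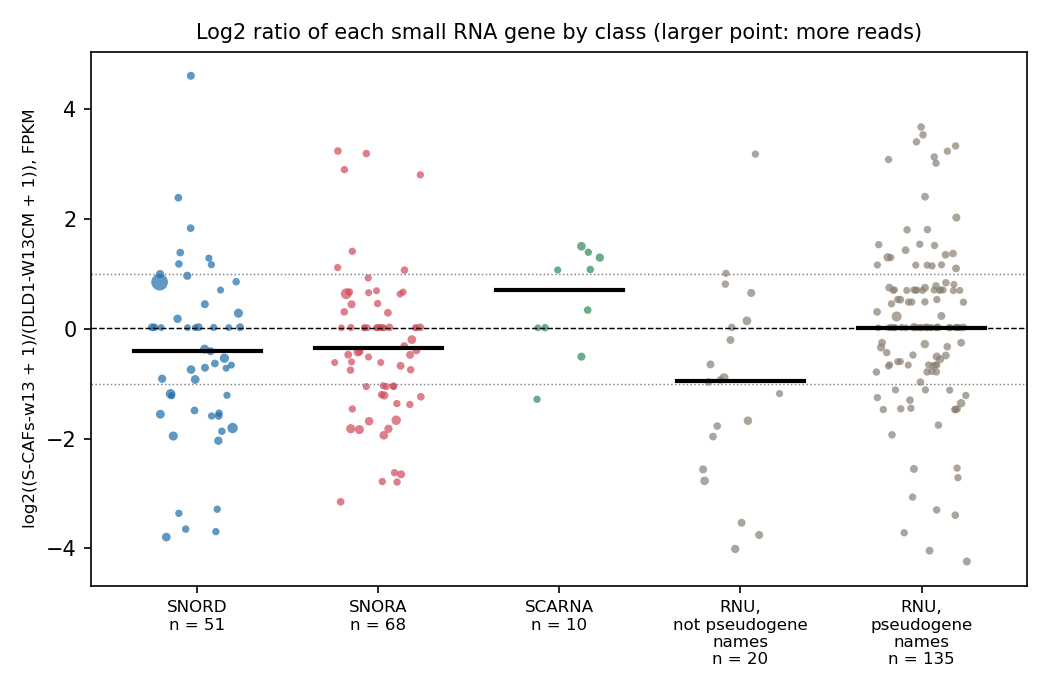
Log2((FPKM + 1)/(FPKM + 1)) of S-CAFs-w13 over DLD1-W13CM for each gene, by class; point size grows with reads, bars are class medians, the dashed line is the median of all genes (0.02) and dotted lines mark 2-fold. Medians of SNORD (-0.41), SNORA (-0.35) and RNU genes without a pseudogene name (-0.95) lie below the dashed line, that of SCARNA (0.70) above it, and RNU pseudogenes centre on it.

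U3, the C/D box RNA needed to cut the ribosomal precursor for small-subunit rRNA, was the most abundant RNA of the set and its copies ran in opposite directions. SNORD3A (RefSeq chr17:19188016-19188232, GRCh38.p14) stood at 116 FPKM from 506 reads in S-CAFs-w13 and at 64.3 FPKM from 285 reads in DLD1-W13CM, a ratio of 1.81 (1.56 to 2.101). SNORD3B-2 (chr17:19063920-19064136) stood at 2.64 FPKM from 13 reads in S-CAFs-w13 and 11.8 FPKM from 59 reads in DLD1-W13CM, 4.45-fold lower (2.41 to 8.85). SNORD3B-1 (chr17:19061912-19062128) stood at 2.55 FPKM from 12 reads in S-CAFs-w13 and 7.08 FPKM from 34 reads in DLD1-W13CM, 2.78-fold lower (1.40 to 5.89). These copies are near-identical, so the counting could have split reads between them. Summed, they held 531 reads in S-CAFs-w13 and 378 in DLD1-W13CM, a ratio of 1.43 (1.25 to 1.64) after scaling to library size, as for all sums below. The deposited FPKM imply lengths of 699, 791 and 758 bases for SNORD3A, SNORD3B-2 and SNORD3B-1, against 217 bases in RefSeq; the models counted are thus longer than the RefSeq genes.

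The other 48 C/D box genes were lower in sum, with 211 reads in S-CAFs-w13 and 305 in DLD1-W13CM, 1.42-fold lower (1.19 to 1.70). Of these, 7 (14.6%) were 2-fold higher and 15 (31.25%) lower, against 18.7% and 14.8% of genes outside these biotypes with up to 20 reads. With all 51 genes the sum had the opposite sign, at 1.11 (0.997 to 1.23), with SNORD3A holding 791 of the 1425 reads. Without the mitochondrial genes in the scaling the sum of all 51 stood at 0.948, while the U3 copies stayed higher at 1.23.

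SNORD11, from the gene of the snoRNP scaffold protein NOP58, had the lowest ratio of the well-covered C/D box genes. It stood at 1.92 FPKM from 1 read in S-CAFs-w13 and at 39.4 FPKM from 21 reads in DLD1-W13CM, 20.6-fold lower, with an interval of 3.31 to 852. SNORD63B, a guide for large-subunit rRNA, stood at 13.8 FPKM from 6 reads in S-CAFs-w13 and 56.4 FPKM from 25 reads in DLD1-W13CM, 4.09-fold lower (1.64 to 12.2). SNORD20, a guide for small-subunit rRNA within the nucleolin gene, stood at 12.1 FPKM from 6 reads in S-CAFs-w13 and 37.5 FPKM from 19 reads in DLD1-W13CM, 3.11-fold lower (1.19 to 9.501). SNORD4A was lower too, with 3 reads in S-CAFs-w13 and 14 in DLD1-W13CM, 4.58-fold (1.28 to 24.8).

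For the remaining abundant C/D box genes the interval included equal levels. SNORD12B stood at 24.8 FPKM in S-CAFs-w13 and 36.4 FPKM in DLD1-W13CM, a ratio of 0.680 (0.320 to 1.40). SNORD12C stood at 14.5 and 28.4 FPKM in the same libraries, a ratio of 0.510 (0.189 to 1.26). SNORD62B (0.765, 0.330 to 1.72), SNORD100 (0.583, 0.212 to 1.49) and SNORD17 (1.24, 0.574 to 2.71) also spanned equality, so a change was not detectable at this depth.

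SNORD39 was the C/D box gene with reads in S-CAFs-w13 alone: 23.3 FPKM from 11 reads there and 0 in DLD1-W13CM, at least 3.74-fold higher when the 0 is set to a floor of 3 reads. Listed at 0 in S-CAFs-w13 were 4 C/D box genes, the highest being SNORD58 with 11.95 FPKM from 5 reads, SNORD121A with 11.5 FPKM from 6 reads and SNORD14E with 9.28 FPKM from 5 reads in DLD1-W13CM. SNORD14E is a copy of U14, which acts in processing of small-subunit rRNA; another copy, SNORD14A, had 4 reads in S-CAFs-w13 and 2 in DLD1-W13CM. SNORD118 (U8) and SNORD13 themselves had no row.

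H/ACA genes were lower in sum: 247 reads in S-CAFs-w13 and 369 in DLD1-W13CM, 1.47-fold lower (1.24 to 1.73), with 7 genes 2-fold higher and 22 lower. The 2-fold shares were 10.3% and 32.4%, against 18.7% and 14.8% of genes outside these biotypes with up to 20 reads. The counting interval lay above equality for 3 H/ACA genes and below it for 8. Among the other genes with up to 20 reads it did so for 9.78% and 7.57%. SNORA73B (U17), which like U3 is needed to cut the ribosomal precursor, was higher in S-CAFs-w13. It stood at 42.6 FPKM from 54 reads in S-CAFs-w13 and 27.1 FPKM from 35 reads in DLD1-W13CM, a ratio of 1.57 (1.01 to 2.48), and was the most abundant H/ACA gene. Without the mitochondrial genes in the scaling this interval included equality, at 1.35 (0.864 to 2.12).

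The SNORA71 copies, guides for small-subunit rRNA that lie in the noncoding gene SNHG17 on chromosome 20, were all lower in S-CAFs-w13. SNORA71C stood at 10.8 FPKM from 9 reads in S-CAFs-w13 and 36.5 FPKM from 31 reads in DLD1-W13CM, 3.38-fold lower (1.57 to 8.07). SNORA71B had 6 reads in S-CAFs-w13 and 26 in DLD1-W13CM, 4.25-fold lower (1.71 to 12.6). SNORA71A had 4 and 15 reads in the same libraries, 3.68-fold lower (1.17 to 15.2), and SNORA71D had 0 and 5. Together the 4 copies held 19 reads in S-CAFs-w13 and 77 in DLD1-W13CM, 3.97-fold lower (2.38 to 6.96); they are similar in sequence, so their sum is firmer than any copy.

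Other H/ACA genes with lower levels lay in other genes. SNORA3B, in RPL27A, stood at 7.37 FPKM from 6 reads in S-CAFs-w13 and 28.9 FPKM from 24 reads in DLD1-W13CM, 3.92-fold lower (1.56 to 11.7). SNORA33, in RPS12, stood at 4.95 FPKM from 4 reads in S-CAFs-w13 and 21.8 FPKM from 18 reads in DLD1-W13CM, 4.41-fold lower (1.45 to 17.9). Both are guides for large-subunit rRNA. The row of SNORA75 (U23) whose length matches the copy in the nucleolin gene had 1 read in S-CAFs-w13 and 11 in DLD1-W13CM, 10.8-fold lower (1.57 to 464), and another SNORA75 row had 7 and 5. SNORA72 (0.863, 0.350 to 2.09) and SNORA55 (0.728, 0.289 to 1.76) spanned equality.

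At 0 in DLD1-W13CM were 4 H/ACA genes, led by a SNORA1 row with 8.40 FPKM from 7 reads, SNORA7B with 8.10 FPKM from 7 reads and SNORA77 with 6.44 FPKM from 5 reads in S-CAFs-w13. At 0 in S-CAFs-w13 were likewise 4, led by a SNORA48 row with 7.89 FPKM from 8 reads, SNORA1B with 5.93 FPKM from 5 reads and SNORA71D with 5.89 FPKM from 5 reads in DLD1-W13CM. The SNORA1 and SNORA48 rows are gene models without a current gene symbol.

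**Figure D3:**
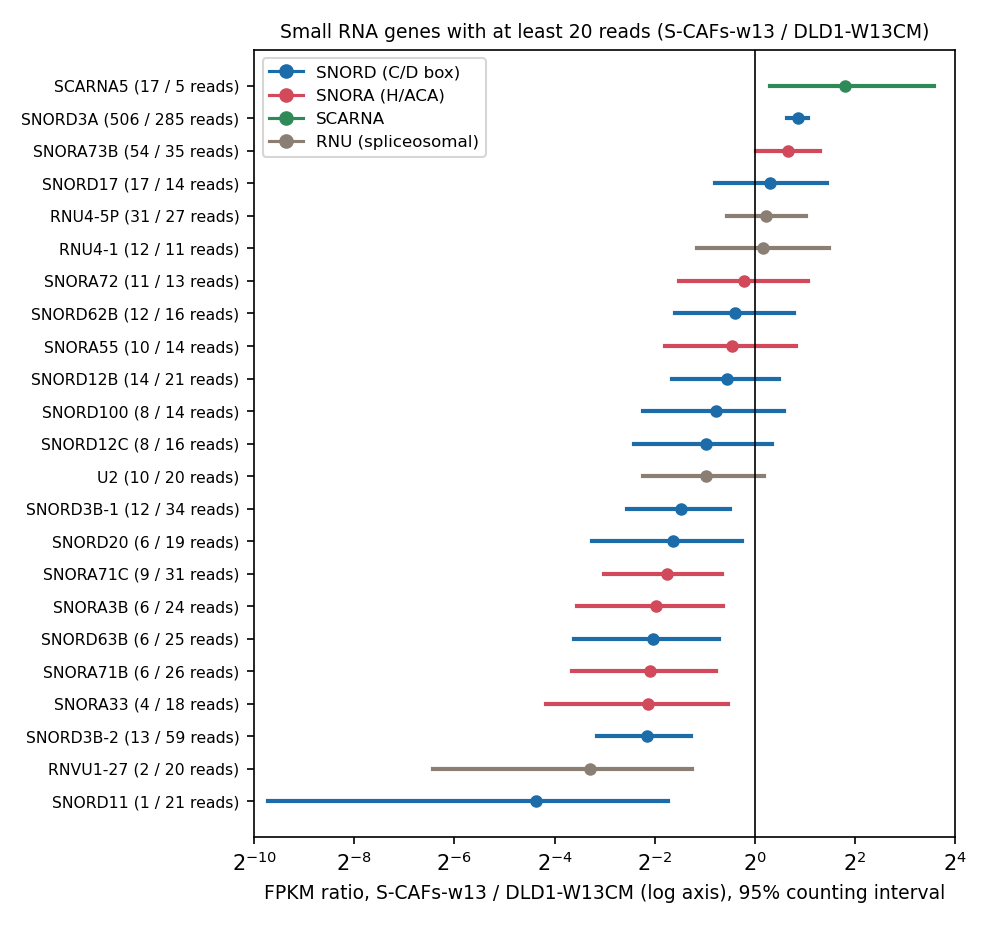
FPKM ratio of S-CAFs-w13 over DLD1-W13CM on a log axis for the 23 small RNA genes with at least 20 reads, with the exact 95% counting interval; reads are given as S-CAFs-w13 / DLD1-W13CM. SCARNA5, SNORD3A and SNORA73B lie above 1 with their whole interval, and 10 genes from SNORD3B-1 down to SNORD11 lie below it.

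Small Cajal body RNAs had a median above that of all genes, on 87 reads in all. Of 10 genes 5 were 2-fold higher and 1 lower, against 18.7% and 14.8% of genes outside these biotypes with up to 20 reads. In sum the SCARNA genes had 55 reads in S-CAFs-w13 and 32 in DLD1-W13CM, a ratio of 1.75 (1.11 to 2.80). Without the mitochondrial genes in the scaling it was 1.50 (0.953 to 2.40) and included equality. SCARNA5 and SCARNA6 held 38 of these reads; they are guides for spliceosomal RNA that both lie in the autophagy gene ATG16L1. SCARNA5 (chr2:233275726-233276003) stood at 9.91 FPKM from 17 reads in S-CAFs-w13 and 2.86 FPKM from 5 reads in DLD1-W13CM, 3.47-fold higher (1.23 to 12.02). SCARNA6 (chr2:233288676-233288941) stood at 7.29 FPKM from 12 reads in S-CAFs-w13 and 2.38 FPKM from 4 reads in DLD1-W13CM, 3.06-fold higher (0.927 to 13.01).

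The other 8 SCARNA genes held 26 reads in S-CAFs-w13 and 23 in DLD1-W13CM, a ratio of 1.15 (0.632 to 2.11) that was 0.987 with the mitochondrial genes left out of the scaling. Among them SCARNA22 stood at 6.44 FPKM in S-CAFs-w13 and 2.52 FPKM in DLD1-W13CM, from 5 and 2 reads. SCARNA13 stood at 2.93 and 4.59 FPKM, from 5 and 8 reads, in the same libraries. A SCARNA16 row had 4 and 3 reads and a SCARNA20 row 4 and 1, and no interval of these genes excluded equality.

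Among spliceosomal RNAs the U1 genes stood apart. U1 pairs with the start of an intron and begins spliceosome assembly; the canonical RNU1-1 had no row, and 9 of the 10 U1 rows to which the deposited table gives no pseudogene name are variant genes (RNVU1), the other being RNU1-2. Of these 10 rows 9 were lower in S-CAFs-w13, 7 of them at least 2-fold, and RNVU1-7 was higher with 3 reads in S-CAFs-w13 and 1 in DLD1-W13CM. Summed, they held 14 reads in S-CAFs-w13 and 97 in DLD1-W13CM, 6.79-fold lower (3.86 to 12.9). All 8 that RefSeq places are on chromosome 1. They are near-identical in sequence, so reads may have been split or moved between rows and the sum is firmer than any row. Reads of copies without a row, such as RNU1-1, would be missing from this sum.

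RNVU1-27 (chr1:148522601-148522765) stood at 1.95 FPKM from 2 reads in S-CAFs-w13 and 19.1 FPKM from 20 reads in DLD1-W13CM, 9.81-fold lower (2.38 to 86.5). RNVU1-25 had 1 read in S-CAFs-w13 and 11 in DLD1-W13CM, 10.8-fold lower (1.57 to 464). RNVU1-19, RNVU1-4 and RNVU1-6 were listed at 0 in S-CAFs-w13 and had 15.1, 12.5 and 10.6 FPKM in DLD1-W13CM, from 16, 13 and 11 reads. With the 0 set to a floor of 3 reads they were at least 5.23-fold, 4.25-fold and 3.60-fold lower.

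The 4 remaining lower U1 rows spanned equality one by one. RNVU1-29 had 1 read in S-CAFs-w13 and 7 in DLD1-W13CM, RNU1-2 had 1 and 6, RNVU1-15 had 2 and 5, and RNVU1-31 had 4 and 7. The deposited table lists 6 more U1 rows under pseudogene names, and these held 23 reads in S-CAFs-w13 and 26 in DLD1-W13CM, a ratio of 0.902 (0.492 to 1.64). Of them 3 now carry symbols of variant genes: RNVU1-32 (RNU1-106P in the table) had 7 reads in S-CAFs-w13 and 2 in DLD1-W13CM, RNVU1-33 (RNU1-87P) had 3 and 6, and RNVU1-34 (RNU1-85P) had 0 and 5. Grouped by current symbol, the 13 U1 genes that are not pseudogenes held 24 and 110 reads in the same libraries, 4.49-fold lower (2.87 to 7.31). The 3 remaining pseudogenes held 13 reads in each library. All 16 U1 rows together held 37 reads in S-CAFs-w13 and 123 in DLD1-W13CM, 3.26-fold lower (2.24 to 4.84).

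**Figure D4:**
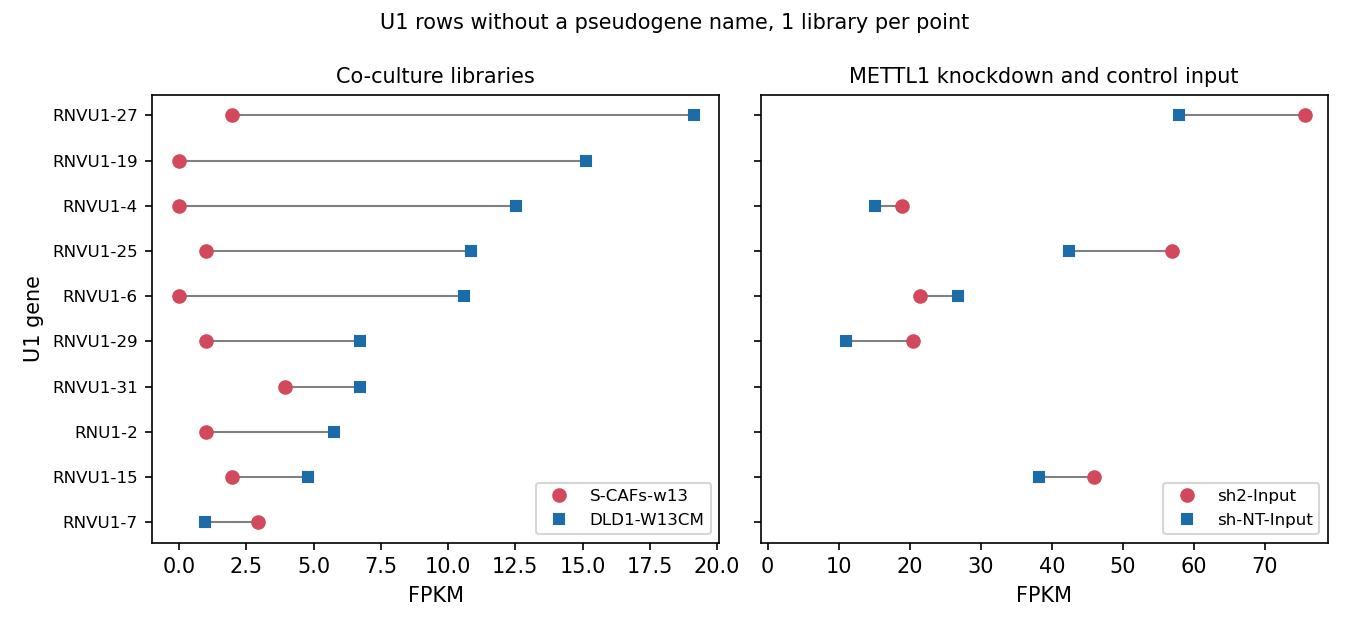
FPKM of the 10 U1 rows without a pseudogene name in the deposited table, in S-CAFs-w13 and DLD1-W13CM (left) and, for the 6 that have a row there, in sh2-Input and sh-NT-Input (right); each point is 1 library, and the panels have their own FPKM axes. In the left panel 9 rows are lower in S-CAFs-w13, and in the right panel 5 of 6 are higher in sh2-Input.

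The other U RNAs of the major spliceosome had too few reads for more than their values. U2, which binds the branch point of the intron, had 2 rows, with 8.42 and 1.68 FPKM in S-CAFs-w13 and 16.5 and 4.11 FPKM in DLD1-W13CM; in sum 12 and 25 reads, a ratio of 0.489 (0.224 to 1.01). U4, which keeps U6 inactive until activation of the spliceosome, was mixed. RNU4-2 stood at 4.56 FPKM from 4 reads in S-CAFs-w13 and 16.8 FPKM from 15 reads in DLD1-W13CM, 3.68-fold lower (1.17 to 15.2).

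RNU4-1 stood at 13.7 FPKM from 12 reads in S-CAFs-w13 and 12.3 FPKM from 11 reads in DLD1-W13CM, a ratio of 1.11 (0.449 to 2.78). A further U4 row had 1 and 3 reads. U5, which holds the exons for joining, had 3 rows (RNU5A-1, RNU5B-1 and RNU5E-1) with 12 reads in S-CAFs-w13 and 11 in DLD1-W13CM, a ratio of 1.11 that was 0.952 without the mitochondrial genes. For U6, the catalytic RNA, 2 rows without a pseudogene name had 8 and 5 reads in S-CAFs-w13 and 5 and 0 in DLD1-W13CM. RNU11, RNU12, RNU4ATAC and RNU6ATAC of the minor spliceosome and RNU7-1, which processes histone mRNA, had no row.

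Rows with pseudogene names in the deposited table made up 135 of the 155 RNU rows. They held 401 reads in S-CAFs-w13 and 399 in DLD1-W13CM, a ratio of 1.02 (0.890 to 1.18). Without the mitochondrial genes in the scaling the ratio was 0.877. Of these rows 26 (19.3%) were 2-fold higher and 24 (17.8%) lower, against 18.7% and 14.8% of genes outside these biotypes with up to 20 reads. The largest family, 99 U6 pseudogenes, held 279 and 253 reads in the same libraries, a ratio of 1.12 (0.945 to 1.34) and 0.963 without the mitochondrial genes. Of the 155 RNU rows 125 lay within a measured protein-coding or lncRNA gene on either strand, as did 89 of the 99 U6 pseudogenes. Whether reads in these rows came from unspliced RNA of the gene around them was not tested. RNU4-5P was the most abundant RNU row of all, with 36.9 FPKM from 31 reads in S-CAFs-w13 and 31.6 FPKM from 27 reads in DLD1-W13CM, a ratio of 1.17 (0.676 to 2.04).

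Next in level were RNU7-75P with 20.8 FPKM in S-CAFs-w13 and 25.4 FPKM in DLD1-W13CM, RNU6-1016P with 8.56 and 23.5 FPKM, RNU6-105P with 20.1 and 7.59 FPKM and RNU6-1262P with 13.4 and 13.1 FPKM; all 4 intervals included equality. At 0 in DLD1-W13CM, RNU6-202P, RNU6-1272P and RNU6-1053P led with 7, 7 and 6 reads in S-CAFs-w13. At 0 in S-CAFs-w13, RNU6-875P and RNU6-789P had 12 and 10 reads in DLD1-W13CM. Of the minor spliceosome, pseudogene copies alone had rows, such as RNU11-2P with 6.80 FPKM in S-CAFs-w13 and 8.89 FPKM in DLD1-W13CM.

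The knockdown table lists genes that carry an m7G peak, and 12 of its rows have these biotypes, 7 of them among the 287 genes. For the 6 U1 members the summed input was higher after METTL1 knockdown: 455 reads in sh2-Input and 328 in sh-NT-Input, a ratio of 1.25 (1.08 to 1.44). The table holds 3 further U1 rows, which are no members, and over all 9 the sums were 542 and 425 reads, a ratio of 1.15 (1.01 to 1.31). In the co-culture libraries the same 6 rows had 6 reads in S-CAFs-w13 and 67 in DLD1-W13CM. Of the 8400 genes of this table that averaged 1 FPKM or more, 0.429% were 2-fold higher and 0.56% lower in sh2-Input, and of the 7 members none was higher and 1 lower by that measure.

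RNVU1-27 stood at 75.6 FPKM in sh2-Input and 58.0 FPKM in sh-NT-Input, a ratio of 1.30 (1.00 to 1.70). RNVU1-29 stood at 20.5 FPKM in sh2-Input and 11.1 FPKM in sh-NT-Input, a ratio of 1.85 (1.04 to 3.38). RNVU1-25 (56.99 and 42.4 FPKM), RNVU1-15 (45.9 and 38.3 FPKM) and RNVU1-4 (18.9 and 15.2 FPKM) were higher in sh2-Input with intervals that included equality. RNVU1-6 was lower, with 21.5 FPKM in sh2-Input and 26.8 FPKM in sh-NT-Input, a ratio of 0.802 (0.513 to 1.25). The tables were scaled separately, so levels between them are not compared.

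RNU2-63P, a U2 pseudogene, was the member past 2-fold: 16.4 FPKM from 37 reads in sh2-Input and 35.01 FPKM from 71 reads in sh-NT-Input, 2.13-fold lower. In the co-culture libraries RNU2-63P had 0.829 FPKM in S-CAFs-w13 and 3.25 FPKM in DLD1-W13CM. The U2 pseudogenes had at most 6 reads each over these 2 libraries, and all 5 intervals included equality. Among rows of these biotypes that are not members, a U2 row was listed at 0 in sh2-Input and at 346 FPKM from 691 reads in sh-NT-Input, and a U3 row stood at 22.4 FPKM in sh2-Input and 17.6 FPKM in sh-NT-Input. The U1 gene RNVU1-30 went against the U1 sum, with 10.5 FPKM from 20 reads in sh2-Input and 23.9 FPKM from 41 reads in sh-NT-Input, 2.28-fold lower (1.31 to 4.11). RNVU1-22 (30.7 and 26.8 FPKM) and RNVU1-21 (6.07 and 7.36 FPKM) had intervals that included equality. U2 has near-identical copies, and whether reads were assigned elsewhere was not tested.

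In the authors' deposited table the m7G peaks of these 12 rows had a fold enrichment of 2.78 to 31.0 with a median of 5.82, against a median of 9.43 over all peaks of the same class, exon. The authors' deposited table gives a negative log2 change in m7G for 11 of the 12, where 48.6% of all 9450 peaks are negative. Which line is the numerator is not stated. Of the 12 rows 9 are U1 copies, near-identical in sequence, so they are not independent and the 2 shares are not of one kind. In the authors' deposited table RNVU1-27 alone of the 12 has an FDR below 0.05, as do 5.25% of all peaks; its log2 change there is -1.9 and its FDR 0.000977 for the peak at chr1:148522601-148522765, which spans the whole gene. In the authors' deposited table RNU2-63P had the positive value, 1.11, with an FDR of 0.643. The other FDR values in the authors' deposited table were 0.533 or above.

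Since many small nucleolar RNAs are cut from introns, each was set beside the gene whose RefSeq span holds it, the smallest where several do. Of the 287 genes 246 could be placed by symbol, and 216 lay within a protein-coding or lncRNA gene that the table measured. The annotation used gives no strand, so a gene on the opposite strand counts as well. Whether reads of these 216 genes came from unspliced RNA of the gene around them was not tested. Among the 15 SNORD, SNORA and SCARNA genes with at least 20 reads, 8 stood on the same side of equal levels as the gene around them (3 higher, 5 lower in S-CAFs-w13) and 7 were lower where that gene was higher. Many of these genes lie near equal levels, and without the mitochondrial genes in the scaling 12 of the 15 stood on the same side (2 higher, 10 lower). The Pearson correlation of the plain log2 FPKM ratios was 0.716 and Spearman's rho 0.433 over these 15 points, some of which share a gene, and 0.584 and 0.326 over the 34 with at least 10 reads. Over all 76 SNORD and SNORA genes above 0 in both libraries the Pearson correlation was 0.127, at a median depth of a few reads. Of the 34 genes 8 were higher and 10 lower along with the gene around them. Another 14 were lower where that gene was higher, and 2 were the reverse. Without the mitochondrial genes in the scaling these counts were 4, 19, 8 and 3. Of the 76 genes the same 4 counts were 16, 19, 24 and 17 in the main scaling. A small RNA gene with equal reads in both libraries, such as SNORD63, counts as higher in the main scaling. At a few reads per gene such ties are part of these counts.

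**Figure D5:**
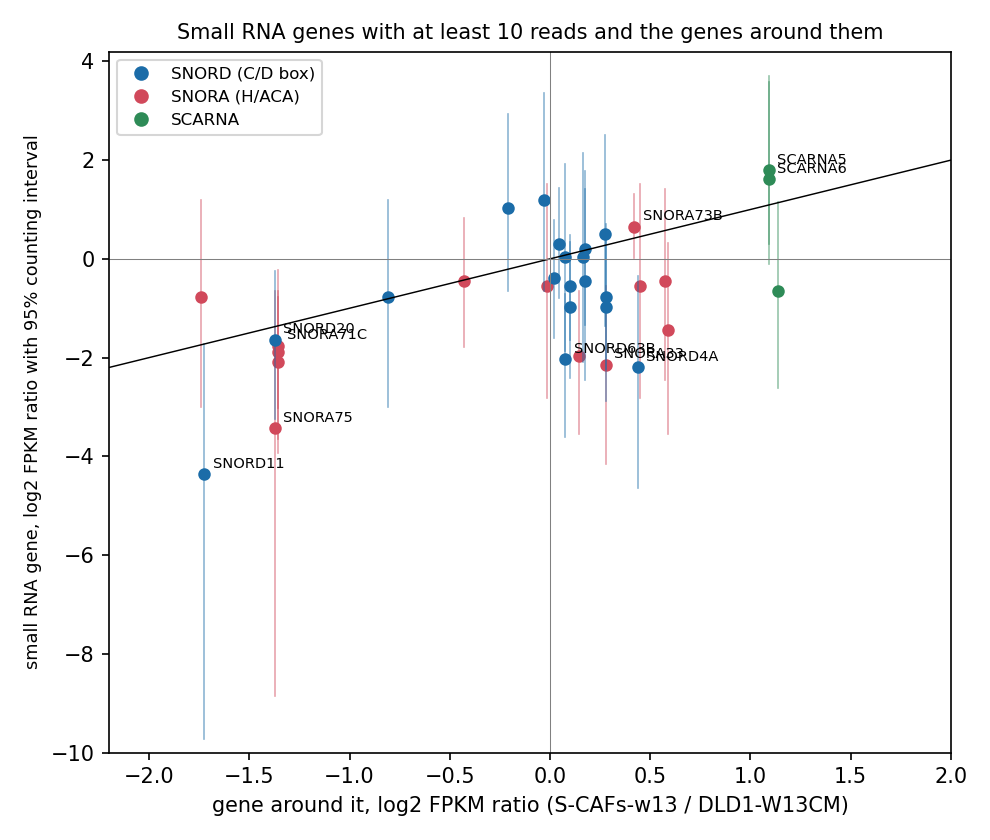
Log2 FPKM ratio (S-CAFs-w13 over DLD1-W13CM) of each SNORD, SNORA or SCARNA gene with at least 10 reads (vertical, with its 95% counting interval) against that of the gene around it (horizontal); the line marks equal ratios. SNORD11, SNORD20, SNORA75 and the SNORA71 copies share low ratios with their genes, while SNORD63B, SNORA33 and SNORD4A are low within genes near or above 0.

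Several of the lower small RNAs lay in genes that were lower themselves. SNHG17, the noncoding gene around the SNORA71 copies, stood at 5.11 FPKM in S-CAFs-w13 and 13.1 FPKM in DLD1-W13CM, 2.56-fold lower (2.09 to 3.15). NCL, which encodes the nucleolar protein nucleolin and holds SNORD20 and SNORA75, stood at 48.9 FPKM in S-CAFs-w13 and 127 FPKM in DLD1-W13CM, 2.59-fold lower (2.34 to 2.87). NOP58 stood at 12.9 FPKM in S-CAFs-w13 and 42.5 FPKM in DLD1-W13CM, 3.30-fold lower (2.88 to 3.80). Within NOP58, SNORD11 and SNORD11B (0 and 5 reads) were lower while SNORD70 (6 and 2 reads) was higher, so its small RNAs did not all share one direction.

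ATG16L1, around SCARNA5 and SCARNA6, stood at 13.6 FPKM in S-CAFs-w13 and 6.39 FPKM in DLD1-W13CM, 2.13-fold higher (1.83 to 2.49). SNHG3, around SNORA73B, stood at 24.8 FPKM in S-CAFs-w13 and 18.5 FPKM in DLD1-W13CM, 1.34-fold higher (1.19 to 1.51). SNORA73B also lies within RCC1, which stood at 19.2 FPKM in S-CAFs-w13 and 34.6 FPKM in DLD1-W13CM; taking the most abundant gene in place of the smallest would set it against RCC1 and give a correlation of 0.589 over the 15 genes, with rho 0.247. The use of the smallest gene was decided after these values were seen, and it changes the gene of 3 members.

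Some lower small RNAs lay in ribosomal protein genes with ratios above 1. RPS12 stood at 361 FPKM in S-CAFs-w13 and 298 FPKM in DLD1-W13CM, a ratio of 1.21 (1.13 to 1.30), while its SNORA33, SNORD100 and SNORD101 held 17 reads in S-CAFs-w13 and 42 in DLD1-W13CM, 2.42-fold lower (1.35 to 4.54). RPL27A, around SNORA3B, had a ratio of 1.11 (1.05 to 1.17) and RPL23A, around SNORD4A, one of 1.35 (1.27 to 1.44). Without the mitochondrial genes in the scaling RPL27A was at 0.948 and RPS12 at 1.04. In all, 15 SNORD and SNORA genes lay in ribosomal protein genes. Of these 6 lay above 0 on the log2 scale and 9 below, and 10 were within 2-fold. Their sum, which includes the low genes just named, was 63 reads in S-CAFs-w13 and 115 in DLD1-W13CM, 1.79-fold lower (1.31 to 2.47). The 68 in other genes were 1.49-fold lower (1.28 to 1.72), an interval that overlaps it. HSPA9, a mitochondrial chaperone gene around SNORD63B and SNORD63, stood at 129 FPKM in S-CAFs-w13 and 123 FPKM in DLD1-W13CM, a ratio that was 0.903 without the mitochondrial genes, while SNORD63 had 6 reads in each library.

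The promoters of SNHG17, NCL and ATG16L1 are shown because these genes and the small RNAs named within them stood on the same side of equal levels. RefSeq (GRCh38.p14) gives them as 250 bases before and 50 after the annotated start, at chr20:38435279-38435578 on the minus strand for SNHG17, chr2:231464435-231464734 on the minus strand for NCL and chr2:233251423-233251722 on the plus strand for ATG16L1. The single capital letter marks the annotated first base, and runs of capitals mark a match to a searched motif on either strand.
SNHG17: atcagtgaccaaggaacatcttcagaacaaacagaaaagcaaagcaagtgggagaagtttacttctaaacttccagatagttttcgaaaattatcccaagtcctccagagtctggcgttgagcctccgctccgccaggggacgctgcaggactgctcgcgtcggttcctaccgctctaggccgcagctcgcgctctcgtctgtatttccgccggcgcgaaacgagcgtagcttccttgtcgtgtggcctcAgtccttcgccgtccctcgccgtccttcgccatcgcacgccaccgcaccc
NCL: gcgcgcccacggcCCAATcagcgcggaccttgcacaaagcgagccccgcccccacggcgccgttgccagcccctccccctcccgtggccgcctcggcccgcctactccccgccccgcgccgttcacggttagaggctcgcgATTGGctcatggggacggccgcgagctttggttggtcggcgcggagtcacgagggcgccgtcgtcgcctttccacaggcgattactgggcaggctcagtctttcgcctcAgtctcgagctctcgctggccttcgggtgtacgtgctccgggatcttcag
ATG16L1: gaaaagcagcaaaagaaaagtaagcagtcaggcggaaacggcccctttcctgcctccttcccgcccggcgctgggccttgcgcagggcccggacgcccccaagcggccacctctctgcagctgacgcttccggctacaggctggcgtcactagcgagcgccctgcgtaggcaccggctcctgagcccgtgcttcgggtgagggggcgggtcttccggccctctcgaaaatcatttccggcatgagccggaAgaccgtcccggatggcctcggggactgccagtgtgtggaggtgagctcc
The motifs searched on both strands were the E box CACGTG, the CCAAT box CCAAT and the TATA box TATAAA, none of which overlapped another in these windows. NCL held the CCAAT box at 2 places and the other promoters held none of these letters. Of 22114 promoters of this length 36.2% held CCAAT, 7.28% CACGTG and 12.7% TATAAA; of the 53 promoters given for genes around SNORD, SNORA and SCARNA members the shares were 30.2%, 9.43% and 9.43%.

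Proteins that build and carry these RNAs were read from lists of known factors, with 2-fold again taken after adding 1 FPKM. By that measure 9.08% of all genes were higher and 7.92% lower. Of the C/D box proteins and assembly factors 12 of 13 reached 1 FPKM; none was 2-fold higher and 2 were lower in S-CAFs-w13, with a median log2 ratio of -0.23. NOP56, the partner of NOP58 in the snoRNP core, stood at 7.57 FPKM in S-CAFs-w13 and 33.9 FPKM in DLD1-W13CM, 4.47-fold lower (3.90 to 5.15), and NOP58 was the other. The methyltransferase FBL was within 2-fold, at 20.1 FPKM in S-CAFs-w13 and 27.8 FPKM in DLD1-W13CM.

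All 6 H/ACA factors reached 1 FPKM, with 1 lower and none higher (median -0.38). The lower one was DKC1, the pseudouridine synthase dyskerin, at 10.8 FPKM in S-CAFs-w13 and 27.2 FPKM in DLD1-W13CM, 2.53-fold lower (2.20 to 2.91). Of 11 Cajal body and transport factors 1 was lower (median -0.50), the cap-binding subunit NCBP1 that U RNAs need for export, with 13.4 FPKM in S-CAFs-w13 and 27.9 FPKM in DLD1-W13CM. Its ratio is just past 2-fold, 2.08-fold lower (1.86 to 2.33).

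Of 22 factors of U RNA transcription and processing 2 were past 2-fold in each direction, near the shares over all genes, and 15 lay above 0 with a median of 0.29. POU2F1, an activator of U RNA promoters, stood at 28.0 FPKM in S-CAFs-w13 and 9.42 FPKM in DLD1-W13CM, 2.97-fold higher (2.75 to 3.20), and ZNF143, another activator, at 16.7 and 6.71 FPKM, 2.49-fold higher (2.09 to 2.98). The Integrator subunits INTS5 (3.09 and 8.31 FPKM) and INTS9 (1.05 and 3.86 FPKM) were lower, Integrator being the complex that cuts the 3′ ends of U RNA precursors.

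Of the SMN and PRMT5 complexes, which load the Sm ring onto U RNAs, 11 of 13 genes reached 1 FPKM and 3 were lower with none higher (median -0.66). WDR77, the partner of PRMT5, stood at 4.02 FPKM in S-CAFs-w13 and 13.6 FPKM in DLD1-W13CM, 3.39-fold lower (2.59 to 4.49), and GEMIN4 at 5.37 and 16.7 FPKM, 3.12-fold lower (2.64 to 3.68). GEMIN7, the third, had 2.35 FPKM in S-CAFs-w13 and 5.85 FPKM in DLD1-W13CM. GEMIN6, at 1.03 FPKM in S-CAFs-w13 and 2.46 FPKM in DLD1-W13CM, was 2.38-fold lower as a plain ratio (1.51 to 3.84). Among 16 Sm and LSm genes 14 lay below 0, with a median of -0.32; SNRPF was past 2-fold lower (3.60 and 9.75 FPKM) and LSM11, a part of the U7 particle, past it higher (2.39 and 0.407 FPKM). SNRPD1, with 4.49 FPKM in S-CAFs-w13 and 9.87 FPKM in DLD1-W13CM, was 2.20-fold lower as a plain ratio (1.79 to 2.71).

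None of the 24 proteins specific to a U particle was past 2-fold after adding 1 FPKM (median 0.02), though SNRNP25, at 2.16 FPKM in S-CAFs-w13 and 4.90 FPKM in DLD1-W13CM, was 2.27-fold lower as a plain ratio (1.56 to 3.36). Of 20 trimming and decay factors 2 were lower, near the share over all genes: TOE1, a nuclease that trims 3′ ends of U RNAs, at 2.11 FPKM in S-CAFs-w13 and 10.0 FPKM in DLD1-W13CM, 4.74-fold lower (3.30 to 6.99), and the exosome subunit EXOSC2 at 4.29 and 9.86 FPKM, 2.30-fold lower (1.84 to 2.89). As plain ratios EXOSC6, at 2.53 FPKM in S-CAFs-w13 and 5.54 FPKM in DLD1-W13CM, was 2.19-fold lower (1.68 to 2.88). MEPCE, at 4.19 and 8.40 FPKM, was 2.01-fold lower (1.55 to 2.61) in the same way. After METTL1 knockdown no gene of these lists was past 2-fold by the measure with 1 FPKM added. As a plain ratio SNUPN, the import adaptor of U particles, was 2.095-fold lower (1.67 to 2.63), with 2.96 FPKM in sh2-Input and 6.203 FPKM in sh-NT-Input. NOP58 stood at 37.9 FPKM in sh2-Input and 39.0 FPKM in sh-NT-Input, and DKC1 at 44.4 and 45.9 FPKM; NOP56, which has no row in that table, was not analysed there.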

How the data were processed

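RNA was measured in 6 libraries of DLD1 cells, 1 per group, and 4 are used here; the immunoprecipitates enter only through the authors' peak values. Per the labels' protocols, total RNA was made into libraries with a TruSeq RNA kit. Tools listed, without roles, in the submitters' processing notes are HISAT2 2.1.0, cutadapt 2.5, DESeq2, featureCounts 1.6.3, HOMER 4.10.4 and SAMtools 1.10; GRCm38, GRCh38 and hg38 are the builds listed. The authors deposited FPKM per gene, a log2 fold change, and p-values and adjusted p-values, per the file headers. For the knockdown pair, per the file headers, they also deposited a fold enrichment (a ratio), a log10 p and FDR given as a score, and a log2 and log10 value of the m7G change for 1 peak per gene. The unit of its input columns is not in the header and was taken as FPKM because ratios of its columns step as in the co-culture table. Of 9044 peaks with a RefSeq gene of the same symbol, 98.6% overlapped that gene in GRCh38.p14. The authors' p-values were used for no test.

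Reads were recovered from FPKM, since a gene's FPKM ratio between libraries, divided by one constant, reduces to whole numbers. Their multiple came from the deposited p-value and log2 fold change of the gene, and for a gene at 0 in one library the read number came from the log2 fold change. All 287 genes then had a whole length, and 158 of 224 known RefSeq lengths matched in the co-culture table. The procedure was run on simulated data whose p-values were made with the formula that it inverts. That run could not show whether the deposited p-values follow this formula. Ratios are plain FPKM ratios with exact 95% Clopper-Pearson intervals; PCR copies are not independent, so intervals cover counting error only. A 0 was set to a floor of 3 reads for a bound. Counts past 2-fold use log2 of FPKM with a pseudocount of 1 FPKM, which understates changes of low genes.

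The members, gene lists and naming rule were chosen with earlier results of these data known. Named per class were the 6 highest by mean FPKM, up to 6 highest and 6 lowest log2 ratios among genes with at least 20 reads, the highest 3 listed at 0 on each side, U RNAs and U3, U8, U13 and U14 wherever present, members in the knockdown table, the 2 highest and 2 lowest list genes past 2-fold, genes at the threshold, and genes around named members. SNORA71A, SNORA75, SNORD4A, SNORD6, SNORD11B, SNORD63, SNORD70, SNORD101, RNVU1-21, RNVU1-22, RNVU1-30, FBL, GEMIN6, GEMIN7, EXOSC6, MEPCE, SNRPD1, SNRNP25, SNUPN, RCC1 and RN7SL2 were chosen after their values were seen. Symbols were matched to RefSeq. Genes around members were to be on the same strand; the annotation used gives none, so either strand was taken. Python 3.11.15, numpy 2.4.6, pandas 2.3.3, scipy 1.17.1 and matplotlib 3.10.9 were used.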

Additional observations from a re-analysis of the deposited data

How the results depend on the processing

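With 1 library per group nothing could be left out, and depth is the main limit: 264 of 287 genes had under 20 reads. No paired analysis was possible because each group held 1 library. The counts of 48 higher and 73 lower genes stayed within 1.5 times under a pseudocount of 0.1 FPKM, no filter, the authors' scaling and centring on protein-coding genes. Scaling without mitochondrial genes also kept within that range, but it left 48 genes higher and raised the lower count to 99. Among genes averaging 5 FPKM or more the counts were 13 and 32. That filter put the median log2 ratio of all members at -0.40, of RNU genes at -0.28 and of SCARNA genes at 1.50. Scaling without mitochondrial genes moved the median of all genes to -0.18 and those of members to -0.18 for the full set, -0.66 for SNORD, -0.62 for SNORA and -0.17 for RNU; the authors' scaling put all members at -0.13. Intervals excluded equality for 39 genes, and for 13 when at least 20 reads were required. Chosen after seeing the data, leaving out SNORD3A, SNORD3B-1 and SNORD3B-2 put the SNORD ratio of summed reads at 0.705 against 1.11, while the U1 ratio of 0.147 was 0.222 with pseudogenes taken by current symbol and 0.307 with all RNU1 rows. The cause was not tested in any of these.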

Other observations

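Short noncoding RNAs outside the biotypes studied had these values in the co-culture libraries. RN7SL2, an RNA of the signal recognition particle, stood at 2571 FPKM from 4794 reads in S-CAFs-w13 and 1249 FPKM from 2375 reads in DLD1-W13CM, a ratio of 2.06 (1.96 to 2.16). A 7SK row, the RNA that holds the elongation factor P-TEFb inactive, had 11 reads in S-CAFs-w13 and 1 in DLD1-W13CM. Both larger groups rest on a median of 6 reads per gene, a depth range (up to 20 reads) where 18.7% of genes outside the biotypes studied were 2-fold higher and 14.8% lower. The 143 genes annotated as miRNA had a median log2 ratio of 0.02, with 37 genes (25.9%) 2-fold higher and 22 (15.4%) lower, and the 194 misc_RNA genes one of 0.02, with 46 (23.7%) higher and 32 (16.5%) lower.

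Of 28 known host genes of small nucleolar RNAs with 1 FPKM or more, 2 were at least 2-fold higher and 3 lower in S-CAFs-w13, near the 9.08% and 7.92% of all genes; the lower ones were NCL, DKC1 and NOP56. SNHG8 stood at 24.9 FPKM in S-CAFs-w13 and 5.98 FPKM in DLD1-W13CM, 4.17-fold higher (2.86 to 6.21), and TAF1D, a subunit of the RNA polymerase I factor SL1, at 39.3 and 11.1 FPKM, 3.53-fold higher (3.22 to 3.88). Inside TAF1D, SNORD6 had 1 read in S-CAFs-w13 and 4 in DLD1-W13CM.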
